A study of Mus musculus with 18 samples.

Results

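The major urinary protein (Mup) genes form a tandem array on mouse chromosome 4, and 8 of its 22 annotated genes, Mup3, Mup7, Mup10, Mup11, Mup14, Mup16, Mup20 and Mup21, were examined for chromatin peaks in liver. The 8 were chosen by measured values of these same files, namely lower H3K27ac coverage in knockout than in control livers at Mup genes and, for Mup10, PPARg peaks in knockout livers. Each gene was taken with its RefSeq span in build mm10 and 5 kb on either side, and the peaks and the base pairs they covered inside that window were counted in all 18 deposited peak lists. The 8 windows together held 149.7 kb, did not overlap, and shared 0 peaks between neighbours, so every peak was counted once. They are 8 of 21883 protein-coding genes in the annotation.

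Liver was profiled by ChIP-seq, which maps where a protein or a histone mark sits on DNA, for 5 targets: H3K27ac, an acetylation found at active enhancers and promoters; H3K4me3, a mark of active start sites; H3K27me3, a Polycomb repressive mark; CTCF, the zinc-finger protein of insulators and loop anchors; and PPARg, a lipid-sensing nuclear receptor. KO mice were CTCF fl/fl and carried Alb-Cre, a recombinase under albumin regulatory sequence that deletes the floxed gene in hepatocytes. Liver cells in which the recombinase is not active keep the gene. WT mice were CTCF fl/fl without Alb-Cre, so the floxed allele is common to both genotypes. All animals were C57BL/6 mice of 8 weeks. H3K27ac was measured in 3 KO libraries (KO 2, KO 3 and KO 4) and 3 WT libraries (WT 1, WT 2 and WT 4), PPARg in 2 KO (KO 7 and KO 8) and 2 WT (WT 2 and WT 4), CTCF in 2 KO (KO160 and KO163) and 2 WT (WT164 and WT165), and H3K4me3 and H3K27me3 in 1 KO and 1 WT each. The CTCF libraries and PPARg KO 7, KO 8 and WT 2 came from male mice fasted overnight and were made by tagmentation. The remaining libraries, PPARg WT 4 among them, were made by ligation, their labels give no sex, and their growth text is about neural stem cells, at odds with the liver tissue label. Nothing in the labels says that libraries of a group came from separate animals, so every p-value measures only the spread between libraries.

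Major urinary proteins are small lipocalins that hepatocytes secrete in large amounts and that pass into urine, where they bind volatile pheromones and act as scent signals themselves. Their genes are known for stronger expression in males than in females, set by the pulsatile release of growth hormone acting through STAT5. Mup20 encodes darcin, a male pheromone that attracts females, and Mup3 is an outlying, more divergent copy that is also expressed in liver. The central copies of the array are near-identical to one another, which matters for any read mapped to them.

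The starts of 4 of the genes are shown because the comparisons below turn on peaks at and just before them, and because they show how alike the copies are. Mup14 held a PPARg peak at its start in all 4 PPARg libraries, Mup11 held the strongest PPARg peak of the central genes in both KO lists, and Mup3 and Mup21 belong to the more divergent far end of the array. Each run covers 250 bases before to 50 bases after the annotated start, 5′ to 3′ on the minus strand, from RefSeq (GRCm38.p6): chr4:61303949-61304248, chr4:60662346-60662645, chr4:62087268-62087567 and chr4:62150792-62151091. Capitals mark TATATAA, the letters of a TATA box, and ATCAAT, a run within sequences that Onecut and Cux proteins recognise.
Mup14: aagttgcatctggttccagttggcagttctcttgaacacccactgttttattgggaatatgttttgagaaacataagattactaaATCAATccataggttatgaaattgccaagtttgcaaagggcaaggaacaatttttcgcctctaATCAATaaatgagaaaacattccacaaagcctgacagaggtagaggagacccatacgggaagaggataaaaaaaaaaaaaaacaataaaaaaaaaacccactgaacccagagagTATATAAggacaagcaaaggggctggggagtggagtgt
Mup11: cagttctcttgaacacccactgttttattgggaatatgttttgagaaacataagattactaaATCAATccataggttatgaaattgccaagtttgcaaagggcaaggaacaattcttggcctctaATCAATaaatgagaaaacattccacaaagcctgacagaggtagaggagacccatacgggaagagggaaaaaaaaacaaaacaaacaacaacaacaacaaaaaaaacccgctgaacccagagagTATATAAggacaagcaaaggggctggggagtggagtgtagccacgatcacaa
Mup3: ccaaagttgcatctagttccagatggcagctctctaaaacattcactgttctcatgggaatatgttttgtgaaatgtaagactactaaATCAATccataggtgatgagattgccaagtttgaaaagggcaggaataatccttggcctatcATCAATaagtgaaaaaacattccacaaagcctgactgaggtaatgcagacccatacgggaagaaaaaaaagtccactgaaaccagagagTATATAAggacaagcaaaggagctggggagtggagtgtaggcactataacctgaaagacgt
Mup21: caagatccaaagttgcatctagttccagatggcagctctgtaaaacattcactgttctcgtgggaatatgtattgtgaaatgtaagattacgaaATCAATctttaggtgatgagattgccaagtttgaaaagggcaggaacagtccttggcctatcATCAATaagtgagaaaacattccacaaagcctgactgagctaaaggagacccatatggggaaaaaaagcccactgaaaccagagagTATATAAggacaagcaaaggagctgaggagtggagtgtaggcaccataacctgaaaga

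RefSeq promoter sequences were matched for 6 of the 8 genes, all but Mup16 and Mup20. Between the 6, the 15 pairs were 83.0% to 98.5% identical over their aligned bases, with a median of 88.0%. Of the printed copies, Mup11 and Mup14 were 97.5% identical, Mup3 and Mup21 were 93.9% identical, and pairs across these groups were 85.1% to 88.0% identical. Of the 50-base words in each promoter, 71.7% in Mup11 and 40.6% in Mup14 occurred exactly in the promoter of another Mup gene, against 11.2% in Mup7, 5.98% in Mup10 and 0% in both Mup3 and Mup21. How the authors treated reads that fit several copies is not given in the sources used here. A peak or its absence at Mup11 or Mup14 can therefore include or lack reads of a sister copy, which was not tested. The promoter words of Mup3 and Mup21 matched none of the other promoters compared. Only the 14 of 22 Mup genes with a RefSeq promoter were compared, over the promoter sequence alone. Reads shared with the remaining copies or outside the promoters were not examined.

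Letter matches were searched on both strands. TATATAA was found in 5 of the 6 promoters, all but Mup7, and in 3.46% of the 27025 promoters of the annotation. ATCAAT was found in all 6, in 7.76% of all promoters. On the gene's strand TATATAA began at -30 bp from the annotated start in Mup10, -11 in Mup3, -8 in Mup21, -2 in Mup11 and 13 in Mup14. ATCAAT began at -82 and -19 bp in Mup7, against -165 and -102 bp in Mup14. The Mup7 window thus ends earlier relative to these letters, and distances from the start are not matched positions between copies. Of the letters that nuclear receptors such as PPARg recognise, AGGTCA occurred in none of the 6 and in 16.0% of all promoters. The STAT5-type letters TTCNNNGAA occurred in none of the 6 and in 8.47% of all promoters, and TTCNNNNGAA in Mup7, Mup11 and Mup14 and in 6.99% of all. The motifs were picked after the peaks had been seen, and neither a match nor its absence in these windows says whether a factor binds.

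The array spans chr4:59951804-62155841, or 2.20 Mb, with the 8 genes in the order Mup7, Mup10, Mup11, Mup14, Mup16, Mup20, Mup3 and Mup21. The H3K27ac lists held 35480, 39092 and 51311 peaks in KO 2, KO 3 and KO 4, against 37312, 40545 and 34324 in WT 1, WT 2 and WT 4, so KO 4 was the longest. The PPARg lists covered 20.8 and 21.1 Mb in KO livers, against 9.0 and 6.9 Mb in WT livers, a KO to WT ratio of 2.63 over the genome. The CTCF lists held 18597 and 20323 peaks in KO livers, against 27585 and 24566 in WT livers. Peak lists carry no read depth, so depth is unknown and the lists' lengths stand beside the values they touch. The tissue label was checked against H3K27ac at defining genes: 8 of 8 hepatocyte markers held peaks, and of the neural stem cell markers Sox2, Olig2 and Pax6 held none, while Nes and Fabp7 held peaks (summed coverage 13.3 to 55.7 in KO, against 17.9 to 36.4 in WT). Peaks of H3K27ac lay at 4 of 4 Y-linked genes, and none at Xist, in all 6 H3K27ac libraries.

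H3K27ac covered less of the Mup windows in KO livers than in WT livers, and the gap was widest at the central genes. Over the 8 windows together, peaks covered 36080, 33350 and 38310 bp in KO 2, KO 3 and KO 4, against 45732, 54462 and 63364 bp in WT 1, WT 2 and WT 4. Every KO library lay below every WT library, and the WT libraries were the more widely spread. As a share of the windows this was 24.0% ± 1.66 in KO and 36.4% ± 5.89 in WT (SD, n = 3 each), a difference of -12.4 percentage points. KO 4, the longest list of the 6, was still below the lowest WT library here. These H3K27ac values helped choose the genes, so they are given as a description and no test is drawn from them. In bulk liver, fewer hepatocytes with the mark and less mark per hepatocyte cannot be told apart.

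**Figure D1:**
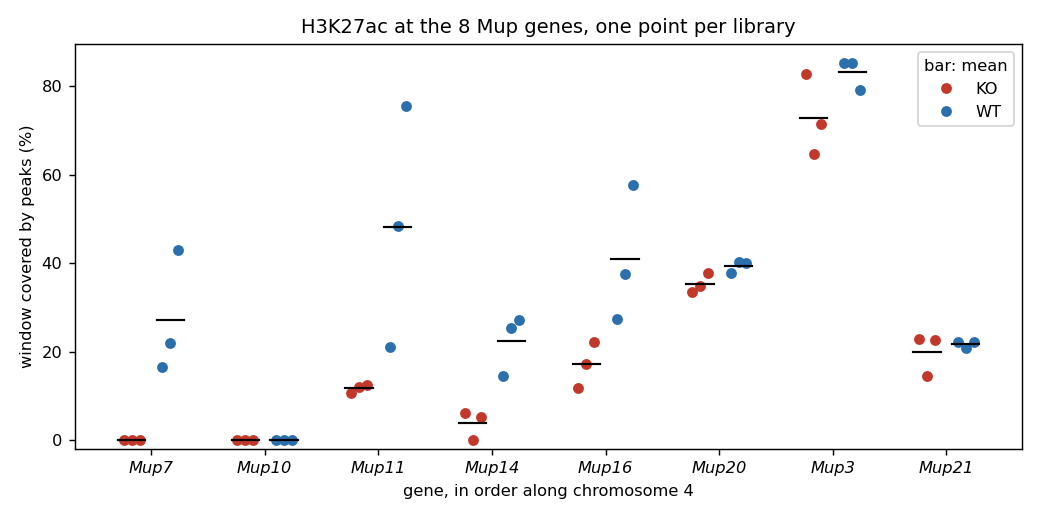
Percentage of each gene's window covered by H3K27ac peaks, 1 point per library, KO left of WT, with a bar at the mean of each genotype. The KO points lie below the WT points at Mup7, Mup11, Mup14, Mup16 and Mup20, mix with them at Mup3 and Mup21, and all 6 points are at 0 at Mup10.

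The 5 central genes, Mup7, Mup10, Mup11, Mup14 and Mup16, form the tandem part proper; this grouping and that of the 3 far genes were made after the values were seen. Mup7 (chr4:60066469-60070475) held no H3K27ac peak in KO 2, KO 3 or KO 4, against 2322, 3071 and 6017 bp in WT 1, WT 2 and WT 4. In each WT list a peak lay across the annotated start, and the one in WT 4 was 4176 bp wide. Peaks were thus present in all 3 WT livers and in no KO liver at this gene. Mup11 (chr4:60658466-60662432) had 1496, 1683 and 1729 bp in KO livers, against 2923, 6754 and 10547 bp in WT livers. All KO values lay below all WT values, and the WT 4 value came from a single peak of 25708 bp that ran from upstream across the whole gene. In KO livers the main Mup11 peak stopped short of the start, ending at -475, -762 and -716 bp relative to it in KO 2, KO 3 and KO 4, while a peak lay over the start in all 3 WT livers. Mup14 (chr4:61300037-61304089) had 844, 0 and 724 bp in KO 2, KO 3 and KO 4, against 2036, 3562 and 3796 bp in WT livers. The groups did not overlap, and what was left in KO 2 and KO 4 was a single narrow peak over the start, without the stretch from -2582 to -1496 bp that WT 1 held as a peak of its own and that WT 2 and WT 4 held within wider peaks. Mup16 (chr4:61515592-61519627) had 1652, 2419 and 3117 bp in KO livers, against 3831, 5279 and 8077 bp in WT livers. The groups were again apart, and the Mup16 peak was the strongest of the central genes, with a fold enrichment by the authors' peak caller of 5.95, 5.71 and 4.59 in KO 2, KO 3 and KO 4. Fold enrichments are the authors' own values, each set within its list, and are not compared between libraries. Mup10 (chr4:60578260-60582276) had no H3K27ac peak in any of the 6 libraries.

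Together the 5 central windows were covered to 6.50% ± 1.26 in KO and 27.7% ± 12.4 in WT (SD, n = 3 each). The 3 far windows, Mup20, Mup3 and Mup21, were covered to 39.4% ± 2.33 in KO and 44.1% ± 0.766 in WT. Both groups of windows had every KO library below every WT library, with a KO to WT ratio of 0.235 for the central and 0.893 for the far genes. Whether the central genes lost more than the far genes was not tested, since this contrast chose them.

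Of the far genes, Mup20 (chr4:62011337-62054143), the darcin gene, held broad H3K27ac in both genotypes, with 17672, 18420 and 19925 bp in KO 2, KO 3 and KO 4, against 19944, 21294 and 21107 bp in WT 1, WT 2 and WT 4. The groups are separated only narrowly, KO 4 and WT 1 lying almost together. Its annotated span is far longer than that of the other genes, and the mark sat in a block at the gene end of higher coordinate and in a second block deep in the span. Mup3 (chr4:62083476-62087317) was the most fully marked of the 8, with 11445, 8954 and 9874 bp in KO livers, against 11786, 11804 and 10952 bp in WT livers. KO 2 lay inside the WT range, so the groups overlapped, and KO 3 and KO 4 were lower. In KO 3 and KO 4 the Mup3 domain was broken into several peaks, whereas KO 2 and all 3 WT libraries held it as a single peak. Mup21 (chr4:62147832-62150841) had 2971, 1874 and 2941 bp in KO livers, against 2890, 2698 and 2868 bp in WT livers. The genotypes overlapped, KO 3 alone lying low.

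Of the 8 genes, 5 had every KO library below every WT library and none had every KO library above. Among all 14877 genes whose H3K27ac coverage varied, 1.57% had every KO library below every WT library, and 10.2% had every KO library above. Nothing is read from the difference between these shares, because H3K27ac in this contrast chose the genes. The median difference was -14.4 percentage points over the 8 genes and 0.916 points over all genes tested. With limma across all 14877 genes, 0 passed an adjusted p of 0.05 in either direction (0.0% higher and 0.0% lower), while 765 were higher and 158 lower in KO at an unadjusted p under 0.05. That split moved with the scale, to 701 higher and 892 lower when coverage was divided by list length and 628 higher and 521 lower with lists of equal covered length.

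**Figure D2:**
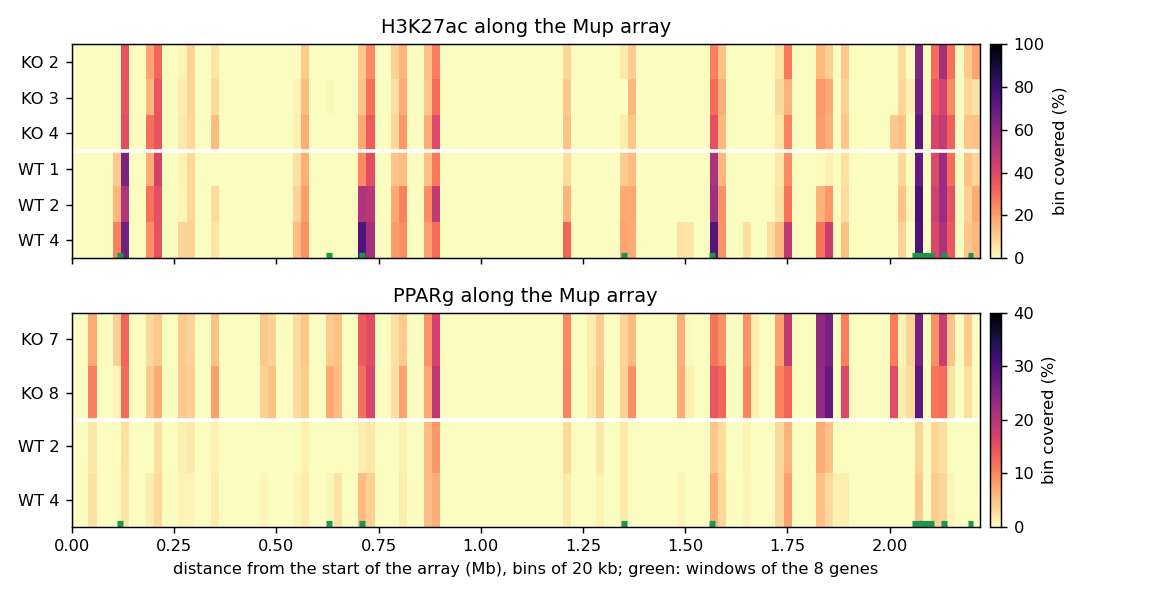
Percentage of each 20 kb bin covered by H3K27ac (top) and PPARg (bottom) peaks along the Mup array, KO libraries above WT libraries, with green bars at the windows of the 8 genes. H3K27ac is fainter in KO near the windows of Mup7, Mup11 and Mup16, while PPARg is stronger in KO along much of the array.

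PPARg peaks covered more of all 8 windows in KO than in WT livers, in lists that were also longer over the whole genome, and 2 genes, Mup14 and Mup20, passed the test over all genes. Over the 8 windows, peaks covered 16812 and 15814 bp in KO 7 and KO 8, against 2837 and 4443 bp in WT 2 and WT 4. In number they were 20 and 22 peaks in KO livers, against 9 and 13 in WT livers. Coverage was 10.9% ± 0.471 in KO and 2.43% ± 0.758 in WT (SD, n = 2 each), a ratio of 4.48 beside 2.63 for the whole lists. The ratio was alike over the other 14 Mup genes, at 4.63, and over the whole array, at 4.51. Over the 7 windows other than that of Mup10, which PPARg peaks had helped choose, coverage was 11.4% ± 0.807 in KO and 2.68% ± 0.837 in WT (SD, n = 2 each), a ratio of 4.24. The exact two-sided permutation test over these 7 windows gave p = 0.333, which is the smallest that 2 against 2 libraries allow. Against WT 2 alone, the WT library made with the same kit as the KO libraries, the difference over the 8 windows was 9.0 points; WT 4 differed in kit, in the labels' account of the animals and in the q threshold of its list.

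**Figure D3:**
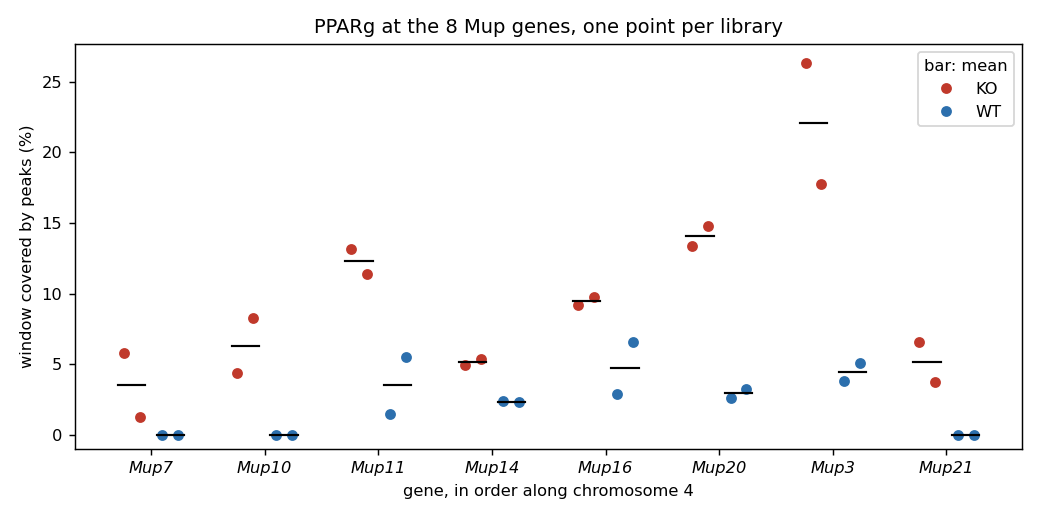
Percentage of each gene's window covered by PPARg peaks, 1 point per library, KO left of WT, with a bar at the mean of each genotype. Both KO points lie above both WT points at every gene, and the WT points are at 0 at Mup7, Mup10 and Mup21.

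Mup20 had the tallest PPARg peak of the 8 genes in both KO lists, with 7069 and 7822 bp covered in KO 7 and KO 8, against 1371 and 1715 bp in WT 2 and WT 4. Both KO values lay far above both WT values, and the difference of 11.2 points (SE 0.663) passed limma across all genes with an adjusted p of 0.0155. That peak, from -1506 to -609 bp beyond the gene end of higher coordinate in KO 7, had a peak-caller fold enrichment of 65.1 and 72.4 in KO 7 and KO 8. In the KO lists that peak stood at percentiles 98.8 and 99.1 of all PPARg peaks by fold enrichment. Mup genes outside the 8 held peaks of higher fold enrichment in the same lists, up to 72.6 in KO 7 and 83.3 in KO 8. Mup14 had 696 and 750 bp in KO livers, against 332 and 325 bp in WT livers. This difference was small, 2.81 points (SE 0.251), but the replicates lay close together and limma gave an adjusted p of 0.0203. The Mup14 peak over the printed promoter, from -393 bp in KO 7 and -398 bp in KO 8, against -416 bp in WT 2 and -386 bp in WT 4, was called in all 4 libraries. A second peak, from -1250 bp in KO 7 and -1242 bp in KO 8, was in the KO lists alone.

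Neither call is independent of the scale of the lists. When each library's coverage was divided by the total length of its list, the difference fell to 4.24 points at Mup20, with a limma adjusted p of 0.1816, and turned round to -0.77 points at Mup14. With the lists shortened to equal covered length, Mup20 differed by 0.021 points and Mup14 by -0.72 points. With lists of equal peak number both genes still passed limma, at adjusted p values of 0.0312 for Mup20 and 0.0326 for Mup14. Both also passed with the stricter q and with 1 kb either side, but in the gene span alone only Mup20 did. With WT 2 left out the difference was 10.9 points at Mup20 and 2.83 points at Mup14. With WT 4 left out it was 11.5 points at Mup20 and 2.78 points at Mup14. These fits hold a lone WT library, so no call is upheld or ended by them.

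Mup3 had 3649 and 2460 bp of PPARg peaks in KO livers, against 526 and 706 bp in WT livers. The genotypes were apart by 17.6 points, and the limma adjusted p was 0.0502. Mup11 had 1841 and 1591 bp in KO livers, against 205 and 773 bp in WT livers, with a limma adjusted p of 0.0523. Its strongest peak began at -994 bp in KO 7 and -956 bp in KO 8 and had a fold enrichment of 47.1 and 32.6 in KO 7 and KO 8. Both genes lay just above the threshold, with both KO libraries higher than both WT libraries. Mup16 had 1285 and 1370 bp in KO livers, against 403 and 924 bp in WT livers, with a limma adjusted p of 0.109. Here WT 4 came nearest to the KO livers, and the sign turned to -2.67 points when coverage was divided by list length.

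At 3 genes PPARg peaks were listed in KO livers alone. Mup7 had 812 and 177 bp in KO 7 and KO 8, and no peak in WT 2 or WT 4, with a limma adjusted p of 0.238. Mup21 had 852 and 486 bp in KO livers and none in WT livers, with a limma adjusted p of 0.0595. Neither passed the threshold with all 4 libraries, KO 7 holding far more than KO 8 at Mup7. With KO 7 left out the difference was 1.26 points at Mup7 and 3.74 points at Mup21. With KO 8 left out it was 5.80 points at Mup7 and 6.55 points at Mup21. No test is read from these fits, since the lone KO library has no spread and both WT values are 0. Mup10 had 608 and 1158 bp in KO livers and none in WT livers, and is described only, because PPARg there chose the gene. Its upstream peak, from -1232 to -625 bp in KO 7 and -1303 to -542 bp in KO 8, had a fold enrichment of 24.5 and 25.8 in KO 7 and KO 8, at a gene with no H3K27ac peak in any library.

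Of the 7 genes that PPARg did not choose, 7 had both KO libraries above both WT libraries, and so did 70.4% of the 9020 genes whose PPARg coverage varied, while 1.31% had both below. By limma, 2 of the 7 passed in the direction of higher coverage in KO, against 28.5% of all genes tested higher and 0.266% lower, so the share of called Mup genes lay near the background. That split over all genes, 2571 higher and 24 lower in KO, did not hold once the lists were cut to equal covered length, where limma called 221 higher and 387 lower, and none of the 7. Fits with any PPARg library left out hold a lone library of that genotype, and no calls are read from them. The median difference was 5.14 points over the 7 genes and 1.46 points over all genes tested.

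**Figure D4:**
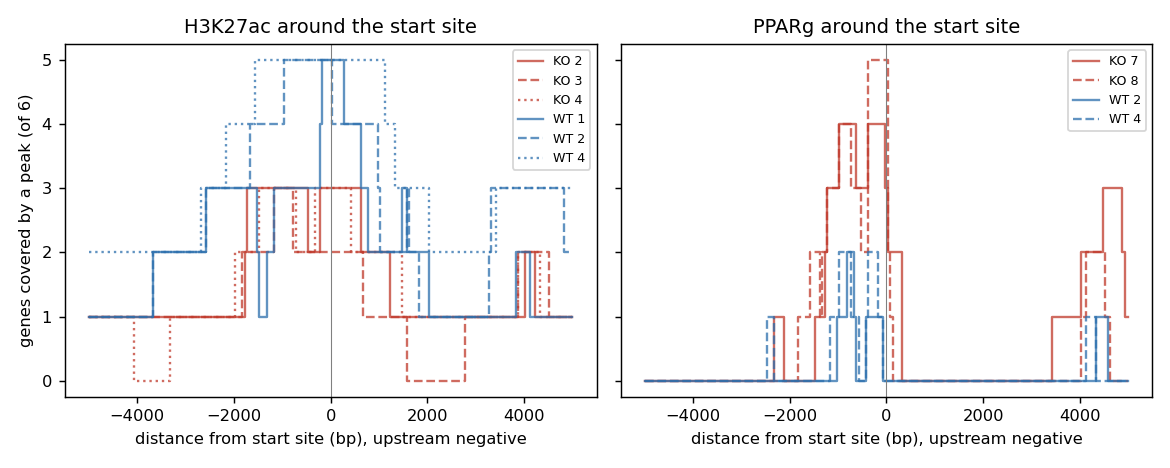
Number of the 6 Mup genes with a RefSeq start site that a peak covers at each distance from the start, with H3K27ac on the left and PPARg on the right, and 1 line per library. PPARg in KO 7 and KO 8 piles up just upstream of the start, where WT 2 and WT 4 cover at most 2 genes, and H3K27ac over the start covers 5 genes in each WT library. Mup10, which PPARg peaks in KO livers helped choose, is among the 6.

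PPARg peaks in the KO lists lay near the start of these genes, though not at matched positions. From -1300 to -500 bp, a window set after the peaks were seen, a PPARg peak was called at 6 and 5 of the 6 genes with a RefSeq start site in KO 7 and KO 8, against 2 and 2 in WT 2 and WT 4. Mup10, which PPARg peaks in KO livers helped choose, is counted in both KO lists and in neither WT list. Its part of this contrast was fixed by that choice. The 2 genes with a PPARg peak in this window in both WT libraries were Mup11 and Mup3. At Mup21 the KO 7 peak, from -520 to 331 bp, reached the window only by its edge. Its KO 8 peak, from -379 to 106 bp, lay outside. Among 17491 genes, 8.29% and 8.23% held a peak there in KO 7 and KO 8, against 3.91% and 3.49% in WT 2 and WT 4. Of 8 other Mup genes with a start site, 7 and 7 held it in KO 7 and KO 8, against 3 and 6 in WT 2 and WT 4. From -500 to 100 bp, a PPARg peak was called at 4 and 5 of the 6 in KO livers, against 1 and 2 in WT livers, Mup14 being the gene common to all 4. Mup10 is counted there in KO 8 alone. The sequence of the upstream window was not compared between copies, and whether reads of a sister copy enter these peaks was not tested.

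In that start window, H3K27ac peaks were called at 4, 2 and 3 of the 6 genes in KO 2, KO 3 and KO 4, against 5, 5 and 5 in WT 1, WT 2 and WT 4. Mup3 and Mup21 held the start peak in all 6 libraries. Mup7 held it in WT livers alone, and Mup14 in the WT livers, KO 2 and KO 4. Mup11 held it in the WT livers, and in KO 2 only the edge of a peak ending at -475 bp reached the window. Over all genes the share with H3K27ac in the start window was 47.8%, 49.3% and 54.1% in KO livers, against 48.5%, 49.8% and 46.8% in WT livers.

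CTCF peaks were nearly absent from the 8 windows. Mup20 was the exception, with 236 and 0 bp in KO160 and KO163, against 297 and 563 bp in WT164 and WT165, inside the annotated gene. The same interval was called in KO160 and in both WT libraries, and WT165 had a second peak deeper in the span. The genotypes did not overlap, but 37.1% of the 11639 genes with varying CTCF coverage had both KO below both WT and 4.19% both above, and limma gave an adjusted p of 0.645 at Mup20. Across all genes limma called 0 for CTCF (0.0% higher and 0.0% lower), with 89 higher and 1139 lower at an unadjusted p under 0.05. That split was 733 higher and 771 lower when coverage was divided by list length, and 258 higher and 229 lower with lists of equal covered length. Over the union of windows the exact two-sided permutation p was 0.333, again the smallest possible. The other 7 genes had no CTCF peak within 5 kb in any library. Over the whole array 12 to 14 CTCF peaks were called in KO livers, against 17 in each WT liver.

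H3K4me3, with 1 library per genotype and therefore no test, marked 2 of the 8 genes. Mup3 had 1746 bp in KO 4 and 2589 bp in WT 2. Mup16 had 443 bp in KO 4 and 1093 bp in WT 2. Both were lower in KO, where the whole list also covered less, at a ratio of 0.879, and all of these peaks lay outside the gene spans, beyond the end of higher coordinate. H3K27me3, also with 1 library per genotype, had no peak at any of the 8 genes in KO150 or WT156.

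**Figure D5:**
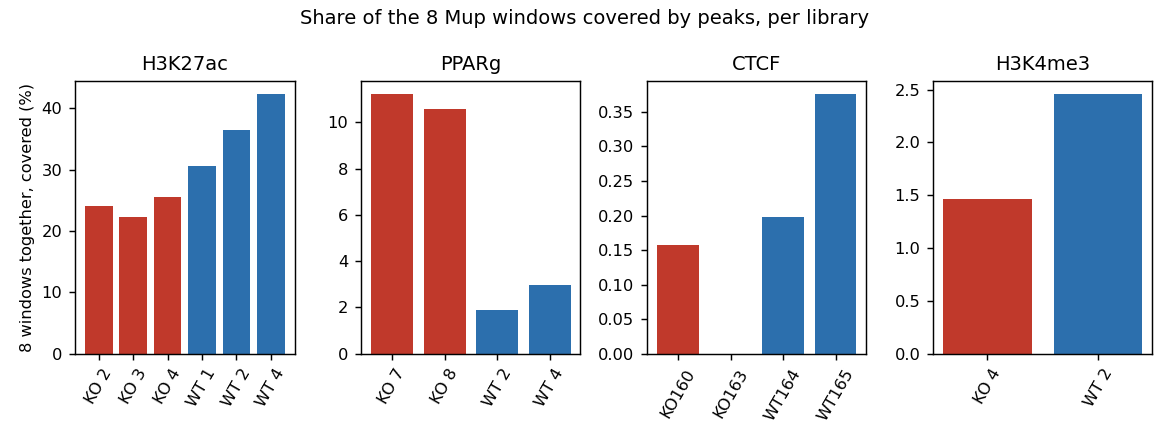
Percentage of the 8 Mup windows together covered by peaks of H3K27ac, PPARg, CTCF and H3K4me3, 1 bar per library, KO in red and left of WT in blue, each panel with its own axis from 0. The KO bars are lower for H3K27ac, CTCF and H3K4me3 and higher for PPARg; H3K27me3, with no peak in either library, is not drawn.

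H3K27ac covered 24.0% of the 8 windows in KO and 36.4% in WT. The central windows alone were at 6.50% ± 1.26 in KO and 27.7% ± 12.4 in WT. The other 14 Mup genes were lower, at 4.21% ± 1.13 in KO and 6.95% ± 3.21 in WT (SD, n = 3 each). Their genotypes overlapped. Every KO library lay below every WT library at 2 of them, Mup1 and Mup12, named here after their values were seen, beside 1.57% of all genes. At 4 others, Mup4, Mup6, Mup9 and Mup13, no library held an H3K27ac peak. Promoter words shared with another Mup gene were 99.2% in Mup15, 96.8% in Mup19, 85.3% in Mup17, 64.9% in Mup2 and 50.6% in Mup9. The share was 31.1% in Mup18, 5.58% in Mup6 and 2.79% in Mup4, and the remaining genes had no promoter to compare. Whether low or absent H3K27ac peaks here reflect reads lost between sister copies was not tested. Mup1 was covered to 2.36% ± 2.16 in KO and 13.7% ± 5.68 in WT, and Mup12 to 7.28% ± 1.19 in KO and 18.5% ± 4.65 in WT. PPARg coverage was higher in both KO libraries than in both WT libraries at 13 of the 14, and at 70.4% of all genes whose PPARg coverage varied. Mup5 was the only Mup gene with a CTCF peak in KO163 and the only one with H3K27me3 peaks, over 1295 bp in KO150 and 1221 bp in WT156. Of the 3 nearest genes on each side of the array, Inip, Snx30 and Slc46a2 before it and Zfp37, Slc31a2 and Fkbp15 after it, none had H3K27ac groups that did not overlap.

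A list of growth hormone signalling and male-biased liver genes, chosen with earlier results of these data known, was set beside the array. Of 22 listed genes 21 held an H3K27ac peak. Every KO library lay below every WT library at 6 of them, against 1.57% of all genes, and at none did every KO library lie above. Nothing is read from the difference between these shares, because of how the list was chosen. The median difference over the list was -1.87 points. The 6 were the male-biased enzymes Cyp2d9, Cyp7b1 and Hsd3b5, the fatty acid elongase Elovl3, the organic anion transporter Slco1a1 and the nudix hydrolase Nudt7. Elovl3 was covered to 6.71% ± 2.46 in KO and 38.4% ± 2.26 in WT, Hsd3b5 to 10.9% ± 1.765 in KO and 25.5% ± 4.31 in WT (SD, n = 3 each). The genes of the signal itself, Ghr, Jak2, Stat5a, Stat5b, Socs2, Cish and Igf1, all had overlapping genotypes, as did the male-biased Cyp4a12a (1.55% ± 1.37 in KO and 1.39% ± 0.705 in WT), C6, Ugt2b1 and Selenbp2, while Cyp4a12b held no peak. Stat5b, for example, was covered to 39.8% ± 4.55 in KO and 35.5% ± 4.70 in WT. None of these genes passed limma for H3K27ac.

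A list of 12 other lipocalin genes was also chosen with earlier results known. Of these, Orm1 and Ambp had every KO library below every WT library, beside 1.57% of all genes, and C8g had every KO library above, beside 10.2% of all genes. The median difference over the list was 1.99 points. Nearest to the summed Mup windows in level over the 6 H3K27ac libraries, by Euclidean distance, were Rnf103 at 7.59 points, Tbx3 at 9.27, LOC115488350 at 9.81, Ccdc142 at 10.5 and Rpl38 at 11.5.

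Markers of the liver's cell types, also chosen with earlier results known, were read in the same H3K27ac lists, as the sum of the percentages covered. The 8 hepatocyte markers summed to between 381 and 409 in KO livers, against 380 to 451 in WT livers, and 2 of the 8, Alb and Tat, were lower in every KO library, as were 1.57% of all genes. The 5 stellate cell markers summed to between 50.4 and 93.0 in KO livers, against 12.3 to 35.3 in WT livers, with 3 of the 5 higher in every KO library, as were 10.2% of all genes. The 5 cholangiocyte markers summed to 18.3 to 26.8 in KO livers, against 13.8 to 15.8 in WT livers, with Krt19, Krt7 and Epcam at 0. Kupffer cell markers (12.3 to 39.7 in KO, against 10.4 to 26.3 in WT, with Vsig4 at 0) and endothelial markers (91.3 to 188 in KO, against 106 to 128 in WT) overlapped between genotypes. The part of these cell types in the Mup values was not tested.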

How the data were processed

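Peak lists of 18 ChIP-seq libraries were read as deposited, 1 list per library. Per the submitters' processing notes the build was mm10 and the tools were MACS2 2.1.2, BWA 0.7.12, deepTools 3.1.3 and Picard 1.77; the control used in peak calling and the treatment of reads that map to several copies are not given in the sources used here. For each peak the authors gave a fold enrichment (a ratio), a −log10 p and a −log10 q, and a whole-number score that was not used. The lowest deposited −log10 q was near 1 for H3K27ac and H3K27me3, 1.31 for H3K4me3 and PPARg WT 4, and about 3 in the remaining PPARg and the CTCF lists, so the lists were cut at different thresholds. Per the file names the authors removed patches and blacklisted regions from the CTCF lists, and patches and mitochondrial sequence from the PPARg lists other than WT 4. Read depth is unknown.

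Gene spans came from RefSeq (GRCm38.p6, the assembly of mm10). The measure was the percentage of a span with 5 kb either side that peaks of a library covered, without scaling. It was fitted over all genes that varied, with limma 3.58.1 in R 4.3.3 and Benjamini-Hochberg adjustment at 0.05. On simulated data with normal noise and 200 genes shifted by 20 points, the fit called 143 of these for H3K27ac. It called 182 for PPARg and 183 for CTCF. Smaller shifts and differences in list length were not simulated, so the check does not cover them. Summed coverage had an exact two-sided permutation test over libraries for CTCF over the 8 windows and for PPARg over the 7 other than that of Mup10, a split added after seeing the data. Python 3.11.15, pandas 2.3.3, numpy 2.4.6 and Biopython 1.88 were used for coverage and pairwise promoter alignment. The genes named are the 8, other Mup genes with a peak in a list where none of the 8 had one, 3 neighbours on each side, members of 2 gene lists whose H3K27ac groups did not overlap, and the 5 genes nearest in H3K27ac pattern. Other genes named (Mup1, Mup12, Mup4, Mup6, Mup9 and Mup13, the signal genes and overlapping male-biased genes of the list, and cell type markers) were named after their values were seen. So were Mup2, Mup15, Mup17, Mup18 and Mup19, named for their shared promoter words. The 8 genes, the lists and the markers were chosen with earlier results of these data known. A further marker list is not reported here. Other window widths, stricter q, lists of equal number or length, scaling by list length, all 22 Mup genes and left-out libraries were tried. KO and WT H3K27ac libraries share the numbers 2 and 4, with nothing in the labels that ties them.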

Additional observations from a re-analysis of the deposited data

How the results depend on the processing

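H3K27ac in these same libraries helped choose the 8 genes, so a kept direction is no independent support. The lower H3K27ac coverage of the 8 windows in KO (-12.4 points) kept its direction under all 15 alternatives. It was -16.8 when divided by list length, -6.68 over all 22 genes, and -15.4 to -9.47 with a library left out. With the replicate block, in which libraries numbered 2 and 4 were matched, it was -14.5; the deviations of same-numbered libraries correlated at -0.26 and -0.23, so the numbers were not taken as pairs. At Mup21 the sign turned to 1.06 points without KO 3, in a leave-one-out range of -3.16 to 1.06. The count of genes with every KO library below every WT library, 5, was 3 with 1 kb either side.

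PPARg coverage (8.46 points, 8.69 over the 7 genes other than Mup10) and CTCF coverage (-0.208) kept their direction, at 7.93 to 9.0 and -0.297 to -0.12 with a library left out. For PPARg the size depended on list length. Of each list's covered length, the 8 windows held 0.0809% and 0.0749% in KO 7 and KO 8, against 0.0315% and 0.0644% in WT 2 and WT 4. The 2595 genes limma called for PPARg were 1667 with 1 kb either side, 1523 in the span alone, 1012 with lists of equal number, 608 of equal covered length, 0 when divided by list length, and 0 to 3143 with a library left out, 0 both without WT 2 and without WT 4. PPARg at Mup14 reversed to -0.719 with equal covered length and -0.77 when divided by list length, and at Mup16 to -2.67 when divided. The cause was not tested. H3K27ac had 1 limma call with the stricter q (0 otherwise), and CTCF 3 in the span alone. H3K4me3 coverage (-0.997) was 0 in the span alone, -0.65 with 10 kb, -0.748 divided by list length and -0.467 over 22 genes, where H3K27me3 was 0.0201. Peak lists hide differences in signal inside a peak or below the threshold, and their depth is unknown. The alternatives for the limma counts and for single genes were added after seeing the data.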
